A study of Homo sapiens with 6 samples.

Results

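A set of 9 well-known long noncoding RNAs was compared between SK-N-AS cells, a neuroblastoma cell line without MYCN amplification, with and without a MYCN transgene switched on. The members were taken by name: MALAT1, NEAT1, MIAT, NORAD, MEG3, KCNQ1OT1, H19, CASC15 and NBAT1, which are 9 of the 60651 genes in the count files, and all 9 had enough counts to be tested. The cells carry the tetracycline repressor and a tetracycline-inducible MYCN construct, so the control cells hold the construct too, and they were kept as single clones under G418 and blasticidin. The 3 control libraries are labelled ETOH and the 3 MYCN-induced libraries Tet, all taken at 120 h (5 d), and the study describes its 3 replicates as independent experiments. The study induced MYCN with tetracycline at 2 µg/ml. No library came from cells given tetracycline without the MYCN construct, so effects of the drug and of MYCN cannot be told apart here. Total RNA was depleted of ribosomal RNA and sequenced in read pairs.

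Long noncoding RNAs are transcripts that are not translated into a known protein. MALAT1 gathers at nuclear speckles, bodies rich in splicing factors, and NEAT1 is the scaffold on which paraspeckles are built. NORAD is a mostly cytoplasmic RNA that binds Pumilio proteins, while MEG3, H19 and KCNQ1OT1 are imprinted, that is, transcribed from the chromosome of 1 parent. CASC15 and NBAT1 lie on opposite strands of a neuroblastoma susceptibility locus on 6p22, and MYCN is a transcription factor that binds E-boxes such as CACGTG.

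Libraries held 64500589 to 102249336 counted pairs. MYCN was measured at 30.3, 35.5 and 32.4 CPM (counts per 1000000 counted pairs, scaled by TMM factors) in the controls and at 211, 221 and 199 CPM after induction (log2 fold change 2.68, SE 0.08, edgeR adjusted p = 4.15e-05), higher in every library labelled Tet. MYCN-induced replicate 3 stood apart: on the first principal component it scored 69.1, while MYCN-induced replicates 1 and 2 scored 14.4 and 13.1 and controls scored -40.3 to -25.9. Of the neuroblastoma markers, HAND2 and GATA3 were at 99.9 CPM or more in every library, while STMN2 and NEFM had at most 4 counts. Of the 12 mesenchymal markers, 11 could be tested, among them COL1A1, COL3A1 and VIM at control means of 1731, 1218 and 364 CPM, and CD44 was listed at 0 in every library. The 10 markers of blood, endothelial, Schwann and liver cells summed to 12.1 to 12.4 CPM in controls and 10 to 14.8 CPM after induction, with CD3E at 0 in every library. Of the 6 of these that could be tested, none was called by edgeR and 1 had an unadjusted p under 0.05. In such bulk RNA, less RNA per cell and fewer cells that hold the RNA cannot be told apart.

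MEG3 fell after MYCN induction and was the only 1 of the 9 members that passed the test, by edgeR's quasi-likelihood test with Benjamini-Hochberg adjustment over 29086 genes. No member rose. Over all genes tested, 2.38% were called lower and 1.02% higher, so 1 of 9 members lower is a count to be read against that background. An unadjusted p under 0.05 was found for 5445 of the 29086 genes, the background for the counts of unadjusted p given here. The levels of 4 members (MEG3, KCNQ1OT1, CASC15 and NBAT1) did not overlap between the groups, all of them lower after induction, and 26.3% of all genes tested did not overlap either. The median log2 fold change of the 9 members was -0.01, against -0.00 for all genes tested. Of the 7306 tested genes typed as lncRNA, 39 were called higher and 190 lower, with a median of -0.05.

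The members differed widely in abundance. To set different genes side by side, CPM was divided by the kb of exon of each gene. All annotated exons were counted, used or not, so genes with many exons, such as CASC15 with 69 merged exons, may read low. On this scale of CPM per kb, MALAT1 stood at 2621 ± 108 (SD, n = 3) in the controls. It was followed by H19 at 102 ± 90, NORAD at 85.7 ± 0.318 and NEAT1 at 84.9 ± 8.27, 3 neighbours whose ranges overlapped. MEG3 followed at 25.5 ± 0.285 and KCNQ1OT1 at 4.78 ± 0.41. CASC15 at 1.06 ± 0.0265, NBAT1 at 0.845 ± 0.106 and MIAT at 0.762 ± 0.0104 were the lowest, and the values of NBAT1 and MIAT overlapped. After induction MALAT1 was again highest, followed by H19 at 158 to 195 CPM per kb. NEAT1 (81, 81.9 and 137) and NORAD (81.5, 88.4 and 92.3) overlapped below it, then came MEG3 and KCNQ1OT1. The values of MIAT (0.736, 0.731 and 0.796), CASC15 (0.824, 0.812 and 0.607) and NBAT1 (0.668, 0.738 and 0.482) overlapped at the low end.

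**Figure D1:**
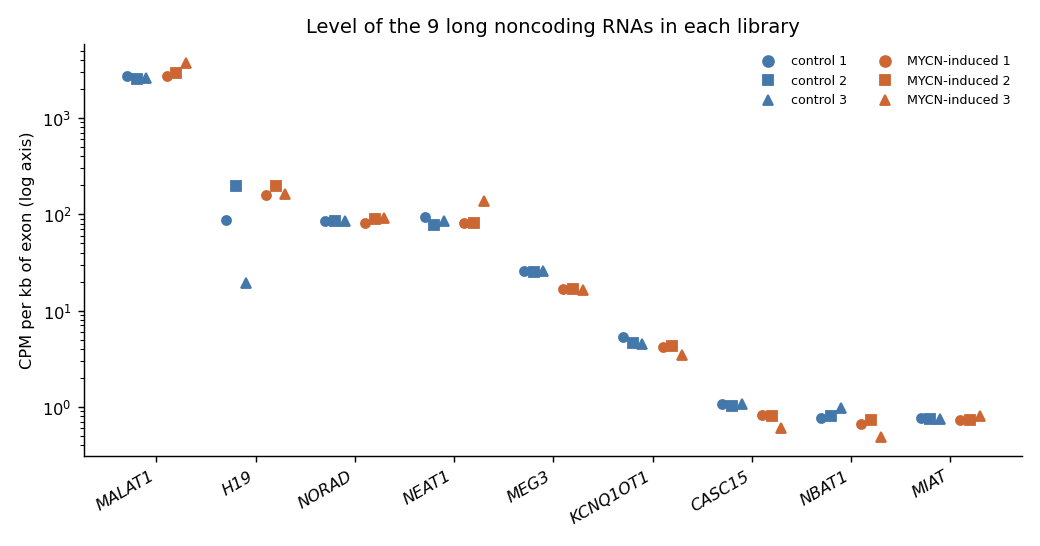
Level of each member in each library, in CPM per kb of exon on a log axis, with controls in blue and MYCN-induced libraries in orange; marker shapes give the replicate. MALAT1 lies between 2541 and 3739 in all 6 libraries, and the 3 H19 controls spread from 19.5 to 198.

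Together the members held 2.89, 2.65 and 2.63% of all counted pairs in the controls and 2.76, 3.05 and 3.52% after induction. The groups overlapped, and the means of 2.72% ± 0.144 and 3.11% ± 0.383 (SD, n = 3) did not pass an exact two-sided permutation test over libraries (p = 0.2, where 0.1 is the smallest this design allows). MALAT1 alone held 2.26 to 3.07% of all pairs, and the other 8 members together held 0.35 to 0.448%.

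MALAT1 (ENSG00000251562, GRCh38 chr11:65497688-65506516, + strand, a single exon of 8829 bases) was counted at 24226, 22432 and 22762 CPM in the controls. After induction it was counted at 23922, 25891 and 33016 CPM. It ranked the highest or next to highest of all genes in each library. The highest value was MYCN-induced replicate 3, and the lowest induced value lay inside the control range. The log2 fold change was 0.25 (SE 0.12, 95% CI -0.02 to 0.53), which did not pass (adjusted p = 0.31), and it was 0.11 without MYCN-induced replicate 3. A 95-base feature on the same strand inside MALAT1, ENSG00000278217, had 2.4 to 3.37% as many counts as MALAT1. This feature stood at 640 to 687 CPM in controls and 677 to 872 CPM after induction. The opposite-strand feature of 396 bases, ENSG00000270117, stood at 1.51 to 2.45 CPM.

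NEAT1 (ENSG00000245532, chr11:65422774-65445540, + strand, 22767 bases in 1 exon) lies on the same strand upstream of MALAT1. It was measured at 2127, 1752 and 1917 CPM in the controls and at 1843, 1866 and 3117 CPM after induction. MYCN-induced replicates 1 and 2 lay within the control range and replicate 3 lay above it. The log2 fold change of 0.24 (SE 0.20, adjusted p = 0.591) turned to -0.05 without MYCN-induced replicate 3. The ratio of MALAT1 to NEAT1 per kb, which needs no scaling factor, was 29.4, 33 and 30.6 in controls and 33.5, 35.8 and 27.3 after induction, a log2 difference of 0.0466 (exact permutation p = 0.7). Of the 20 paraspeckle proteins, none was called in either direction by edgeR (1 had an unadjusted p under 0.05, DAZAP1 at 0.28 on the log2 scale). NONO and SFPQ, the core pair of paraspeckle proteins, had log2 fold changes of -0.02 (adjusted p = 0.916) and 0.08 (adjusted p = 0.662). None of the 18 speckle proteins was called, and none had an unadjusted p under 0.05. Of 15 genes of nuclear RNA decay, 3′ end cleavage and m6A methylation, none was called by edgeR. An unadjusted p under 0.05 was found for 3 of the 15, near the share over all genes tested (5445 of 29086). These were ZCCHC8 (0.40) and RBM7 (0.27), subunits of the nuclear exosome targeting complex, and METTL3 (-0.19), the m6A methyltransferase.

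MIAT (ENSG00000225783, chr22:26646411-26676475, + strand) is a nuclear lncRNA that was first linked to myocardial infarction. It was the steadiest of the low members, at 10.8, 10.5 and 10.5 CPM in controls and 10.2, 10.2 and 11.1 CPM after induction. The groups overlapped, and the log2 fold change was -0.01 (SE 0.09, 95% CI -0.22 to 0.19, adjusted p = 0.955). Of its exon bases, 21.92% are also part of other genes, the largest share of any member, including MIATNB on the same strand at 17.9 to 22.3 CPM.

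NORAD (ENSG00000260032, chr20:36045618-36051018, - strand, 1 exon of 5401 bases) shares no exon base with another gene. Its exon holds 15 matches to TGTANATA, the Pumilio response element searched on the RNA strand only, or 2.78 per kb. The other 8 members hold 0 to 0.27 per kb, so this feature of the sequence set NORAD apart as a description. A few of the sites are shown, read from the GRCh38 genome, with the element in capitals and the coordinates of the whole printed stretch.
NORAD, element starting at RNA position 819, chr20:36050182-36050211, - strand: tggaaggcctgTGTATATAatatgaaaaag
NORAD, element starting at RNA position 1299, chr20:36049702-36049731, - strand: aaatcacatttTGTAAATAcctttttgtta
NORAD, element starting at RNA position 1509, chr20:36049492-36049521, - strand: tgtgtatatagTGTACATAaaggacagacg

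The RefSeq promoter of NORAD (GRCh38.p14, 250 bases before to 50 after the start) was the only 1 of the 7 member promoters given that held CACGTG, searched on both strands. It lies 138 bases before the start and is in capitals; 7.3% of 35116 RefSeq promoters hold it.
NORAD promoter, chr20:36050911-36051210, - strand: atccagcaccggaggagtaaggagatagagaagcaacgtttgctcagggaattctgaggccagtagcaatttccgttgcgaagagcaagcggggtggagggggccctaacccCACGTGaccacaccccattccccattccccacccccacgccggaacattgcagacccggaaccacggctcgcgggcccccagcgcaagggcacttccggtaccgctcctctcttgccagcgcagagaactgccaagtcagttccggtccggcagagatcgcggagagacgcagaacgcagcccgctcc

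NORAD was counted at 464, 461 and 463 CPM in the controls, the narrowest spread of any member. After induction it stood at 440, 478 and 499 CPM, on both sides of the controls. The log2 fold change was 0.03 (SE 0.07, 95% CI -0.13 to 0.19, adjusted p = 0.869), and its sign depended on the scaling: it was -0.01 by library size only. Of the 8 proteins described as bound or held by NORAD, none was called by edgeR and none had an unadjusted p under 0.05. PUM2, a Pumilio protein, stood at 154 to 164 CPM in controls and 151 to 162 CPM after induction, with a log2 fold change of 0.00 (adjusted p = 0.987).

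MEG3 (ENSG00000214548, chr14:100779410-100861031, + strand, 7 merged exons of 23224 bases) is transcribed from the maternal chromosome in the imprinted DLK1-DIO3 region of 14q32. The RefSeq promoter lies 46.7 kb inside the gene model of the files. It holds TGACGTCA, the cyclic AMP response element, 50 bases before the start (in capitals, on both strands because it is a palindrome), and the TATA box TATAAA 18 bases before the start. Of all RefSeq promoters, 1.8% hold the element TGACGTCA and 11.5% hold TATAAA; neither CACGTG nor the GC box GGGCGG was found in this window.
MEG3 promoter, chr14:100825858-100826157, + strand: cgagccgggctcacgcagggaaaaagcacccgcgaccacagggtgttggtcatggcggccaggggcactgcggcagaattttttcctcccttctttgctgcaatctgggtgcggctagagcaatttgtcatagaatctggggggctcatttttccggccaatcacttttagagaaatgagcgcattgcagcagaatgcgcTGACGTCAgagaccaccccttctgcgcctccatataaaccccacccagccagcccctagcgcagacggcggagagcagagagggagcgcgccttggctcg

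MEG3 was measured at 597, 584 and 594 CPM in the controls and at 388, 389 and 378 CPM after induction. Each group was tight, and every induced library lay well below every control. The means of 592 ± 6.62 and 385 ± 5.97 CPM (SD, n = 3) gave a log2 fold change of -0.62 (SE 0.06, 95% CI -0.75 to -0.49), or 0.651 of the control level, with an adjusted p of 0.00376. MEG3 was called lower in 14 of 14 alternative settings, with log2 fold changes of -0.65 to -0.60 and adjusted p-values of 1.54e-15 to 0.0411.

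**Figure D2:**
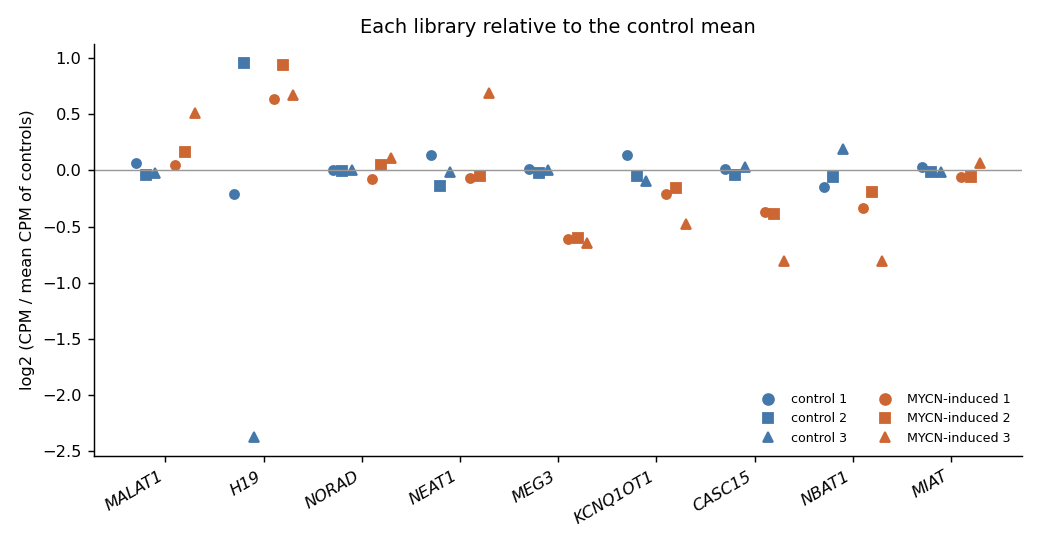
Each library's CPM relative to the mean of the 3 controls on a log2 scale, for each member, with controls in blue, MYCN-induced libraries in orange and the shape giving the replicate. The 3 induced MEG3 points coincide below 0, while H19 varies most among controls, from 56.6 to 573 CPM.

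Most genes tested around MEG3 also had lower values after induction. From the first base of DLK1 to the last base of DIO3, a region of 838 kb chosen after the values were seen, 106 of 128 genes could be tested. Of these, 101 had a log2 fold change below 0, 13 were called lower and 0 higher, with a median of -0.64. The calls include MIR376A1, which passed the count filter only through the controls. Over all genes tested, the median was -0.00. In the 1 Mb before DLK1, 27 genes had a median of 0.08 and in the 1 Mb after DIO3, 20 genes had a median of -0.02. By edgeR, 0 genes were called on either side, and 6 and 1 had an unadjusted p under 0.05, against 5445 of all 29086 genes tested. The 13 calls are not independent of each other: 36 of the 106 genes share exon bases with another gene, and a pair over shared bases is divided between the genes, on either strand. Among the 70 genes that share none, 67 were below 0 and 7 were called. Many of these are snoRNAs and miRNA hairpins that lie within the span of a longer transcript such as MEG8 (chr14:100894770-101038859, + strand). Pairs from such a transcript can be counted on them, so the genes below 0 cannot be taken as independent either.

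The lncRNAs of the region all had values below 0, 7 of 7, and 4 were called. DIO3OS, transcribed opposite DIO3, had 2.02, 1.58 and 1.91 CPM in controls and 0.647, 0.826 and 0.519 CPM after induction, a log2 fold change of -1.46 (SE 0.20, adjusted p = 0.0126). ENSG00000258663, a 289-base gene antisense to MEG3 whose bases all lie in MEG3 exons, went from 13, 13.2 and 12.8 CPM to 7.5, 7.05 and 7.23 CPM (log2 fold change -0.84, adjusted p = 0.00514). Without strand, its pairs and those of MEG3 cannot be told apart. ENSG00000230805 was also called (log2 fold change -1.09, adjusted p = 0.0427). Beside the lncRNAs and the 7 miRNA hairpins described next, the calls were ENSG00000276919, a 105-base feature inside a MEG3 exon on the same strand (-0.71, adjusted p = 0.0386), and ENSG00000258861 (-0.84, adjusted p = 0.0328). MEG8, the host of the SNORD113 and SNORD114 clusters, stood at 222, 189 and 200 CPM in controls and 158, 181 and 110 CPM after induction (log2 fold change -0.45, adjusted p = 0.204), so the groups did not overlap, although it did not pass. For MEG9 the log2 fold change was -0.90, which did not pass (adjusted p = 0.0702). Of the 8 genes tested from the 14q32 list of 9, DIO3OS was the only call, 6 were below 0 and the median was -0.67.

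The protein-coding genes DLK1 and RTL1 are expressed from the paternal chromosome. RTL1, a retrotransposon-derived gene, stood at 18, 16.8 and 16.9 CPM in controls and at 11.2, 12.3 and 7.82 CPM after induction. Its log2 fold change was -0.72 (adjusted p = 0.0549). RTL1 lies on the - strand, and MIR433 and MIR127 lie within its span on the + strand. Without strand, its pairs cannot be told apart from those of + strand RNA over the same bases. DLK1, a Notch-related ligand, stood at 9.87, 13 and 13.6 CPM in controls and at 8.48, 10.6 and 4.89 CPM after induction (log2 fold change -0.61, adjusted p = 0.268). DIO3, a thyroid hormone deiodinase, stood at 1.02, 1.27 and 1.82 CPM in controls and at 0.786, 0.526 and 0.507 CPM after induction (log2 fold change -1.20, adjusted p = 0.0592). None of the 3 passed.

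Of 45 miRNA hairpins tested, 42 were below 0 and 7 were called lower: MIR370, MIR433, MIR487B, MIR134, MIR668, MIR376B and MIR376A1. The pairs counted here fall on the hairpin in long RNA fragments, so mature miRNA was not measured. Counts were low, with 0.148 to 1.48 CPM in the control mean of these 7. MIR668 went from 1.72, 1.4 and 1.31 CPM to 0.709, 0.515 and 0.436 CPM (log2 fold change -1.43, adjusted p = 0.0171). MIR134 went from 1.37, 1.3 and 1.24 CPM to 0.586, 0.601 and 0.283 CPM (log2 fold change -1.41, adjusted p = 0.0337). MIR376A1 had the largest change, -2.13 (adjusted p = 0.0333), at 0.172, 0.135 and 0.138 CPM in controls and 0.0308, 0.0429 and 0.0236 CPM after induction. The mature sequences of the called hairpins, from RefSeq (GRCh38.p14) with the seed (bases 2 to 8) in capitals, are shown because the seed is the stretch by which a miRNA pairs with its targets; miR-376a-3p and miR-376b-3p share the seed UCAUAGA.
hsa-miR-376a-3p, chr14:101040825-101040845, + strand: aUCAUAGAggaaaauccacgu
hsa-miR-376b-3p, chr14:101040497-101040518, + strand: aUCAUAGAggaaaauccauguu
hsa-miR-134-5p, chr14:101054694-101054715, + strand: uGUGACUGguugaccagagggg
hsa-miR-668-5p, chr14:101055264-101055282, + strand: uGCGCCUCgggugagcaug
hsa-miR-487b-3p, chr14:101046505-101046526, + strand: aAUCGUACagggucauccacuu
hsa-miR-370-3p, chr14:100911186-100911207, + strand: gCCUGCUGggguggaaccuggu
hsa-miR-433-3p, chr14:100881949-100881970, + strand: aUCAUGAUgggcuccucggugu

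Of the 46 box C/D snoRNAs tested, 44 were below 0 with a median of -0.48, and 0 were called by edgeR. An unadjusted p under 0.05 was found for 16 of them, against 5445 of all 29086 genes tested. The most abundant was SNORD114-20, at 32.7, 28.2 and 29.4 CPM in the controls and 25.8, 46.1 and 20.1 CPM after induction. Its log2 fold change was 0.03 (adjusted p = 0.97). MYCN-induced replicates 1 and 3 lay below every control and replicate 2 above.

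**Figure D3:**
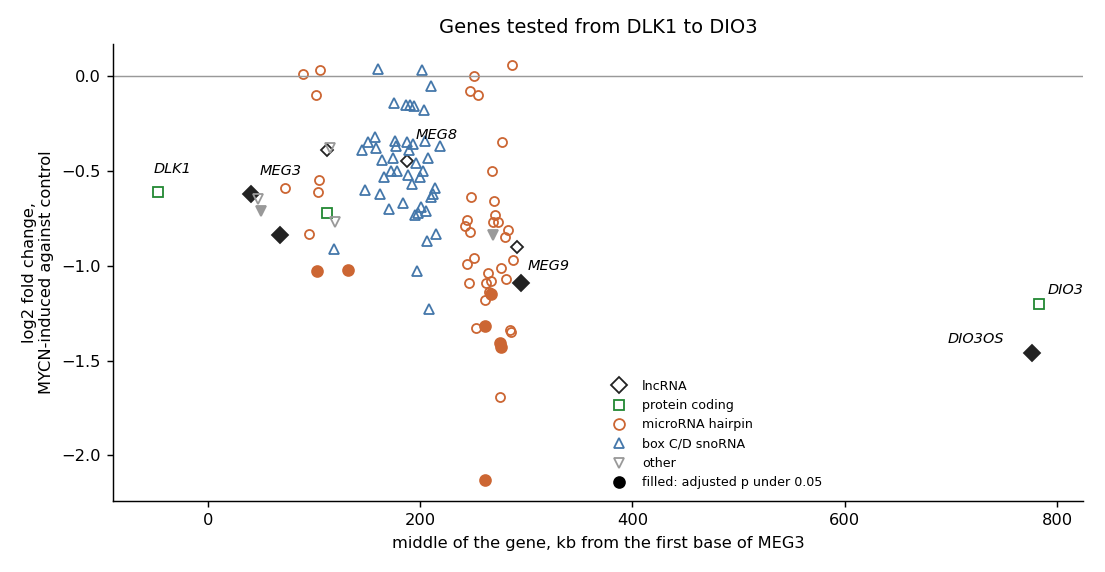
Log2 fold change of each of the 106 genes tested from DLK1 to DIO3 against its distance in kb from the first base of MEG3; shape and color give the gene type and filled symbols mark adjusted p under 0.05. Most points lie below 0, with a median of -0.64.

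The count of calls in the region depended on single libraries, the share below 0 less so. Without control replicate 1, 2 or 3, the genes called lower were 2, 1 and 2, and without MYCN-induced replicate 1, 2 or 3 they were 4, 7 and 13. The genes below 0 numbered 90 to 103 over those settings, and the median moved to -0.45 without MYCN-induced replicate 3.

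KCNQ1OT1 (ENSG00000269821, chr11:2608328-2699994, - strand, 91667 bases in 1 exon) is the paternally expressed antisense RNA of the KCNQ1 domain on 11p15. It was counted at 481, 424 and 410 CPM in controls and at 380, 394 and 314 CPM after induction. The groups did not overlap, with MYCN-induced replicate 3 lowest. The log2 fold change was -0.27 (SE 0.10, 95% CI -0.51 to -0.03), which did not pass (adjusted p = 0.21), and it was -0.17 without MYCN-induced replicate 3. KCNQ1, which shares 121 exon bases on the other strand, stood at 0.547 to 0.965 CPM in all libraries (log2 fold change -0.49, adjusted p = 0.188). CDKN1C, the growth inhibitor silenced in cis by KCNQ1OT1 on the paternal chromosome, had at most 7 counts in any library and was not tested.

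H19 (ENSG00000130600, chr11:1995176-2001470, - strand) is the maternally expressed partner of IGF2 and host of MIR675. It was counted at 254, 573 and 56.6 CPM in the controls and at 458, 565 and 469 CPM after induction. The controls spanned 10.1-fold and the induced libraries 1.23-fold, and control replicate 3 was the lowest of all 6. The log2 fold change of 0.76 (SE 0.64, 95% CI -0.73 to 2.24) did not pass (adjusted p = 0.591), and it was 0.27 without control replicate 3 and 1.68 without control replicate 2. Among the 12483 genes with a mean of at least 5 CPM, H19 ranked 10 by its spread among controls, where the median was 1.09-fold. TUBB, a beta tubulin, was the only other gene with control replicate 3 below 0.5 of the lowest of the other 5 libraries, at 72.6 CPM against 150 to 200 CPM. A 71-base feature on the opposite strand inside H19, ENSG00000275266, had 25% as many counts as H19 in control replicate 3 and 0.577 to 3.24% in the other libraries. IGF2, the fetal growth factor, stood at 3813, 4484 and 4553 CPM in controls and at 3171, 2222 and 4384 CPM after induction (log2 fold change -0.39, adjusted p = 0.388). Of the 9 genes tested from the imprinted 11p15 list of 14, none was called by edgeR, 7 were below 0 and 1 had an unadjusted p under 0.05.

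CASC15 (ENSG00000272168, chr6:21664185-22654455, + strand, 69 merged exons) had a log2 fold change of -0.51, which did not pass. It was counted at 36.8, 35.5 and 37.2 CPM in controls and at 28.3, 27.8 and 20.8 CPM after induction, with no overlap (SE 0.12, 95% CI -0.79 to -0.23, adjusted p = 0.0674). Of the 14 alternative settings, 3 called it lower: DESeq2 (adjusted p = 0.0128), no count filter (adjusted p = 0.0393) and leaving out MYCN-induced replicate 3 (log2 fold change -0.37, adjusted p = 0.014). The others did not, and without control replicate 1, 2 or 3 the edgeR adjusted p was 0.176, 0.224 and 0.204.

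NBAT1 (ENSG00000260455, chr6:22133205-22147193, - strand) lies within the span of CASC15 and overlaps it by 227 exon bases on the opposite strand. Without strand, its pairs cannot be told apart from those of CASC15 RNA over the same bases, so the values of NBAT1 and CASC15 are not independent. It had 2.81, 2.99 and 3.56 CPM in controls and 2.47, 2.73 and 1.78 CPM after induction. The groups did not overlap, but the log2 fold change of -0.42 (SE 0.18, 95% CI -0.85 to -0.00) did not pass (adjusted p = 0.264), and it was -0.25 without MYCN-induced replicate 3. Of 9 genes tested from the list of CASC15 and NBAT1 neighbours and partners, REST, a repressor of neuronal genes that NBAT1 is described to act on, was called higher, at 150, 149 and 143 CPM in controls and 175, 186 and 178 CPM after induction (log2 fold change 0.29, adjusted p = 0.0464). SOX4, a neighbour of CASC15, stood at 197 to 233 CPM in controls and 190 to 212 CPM after induction (log2 fold change -0.12, adjusted p = 0.488).

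**Figure D4:**
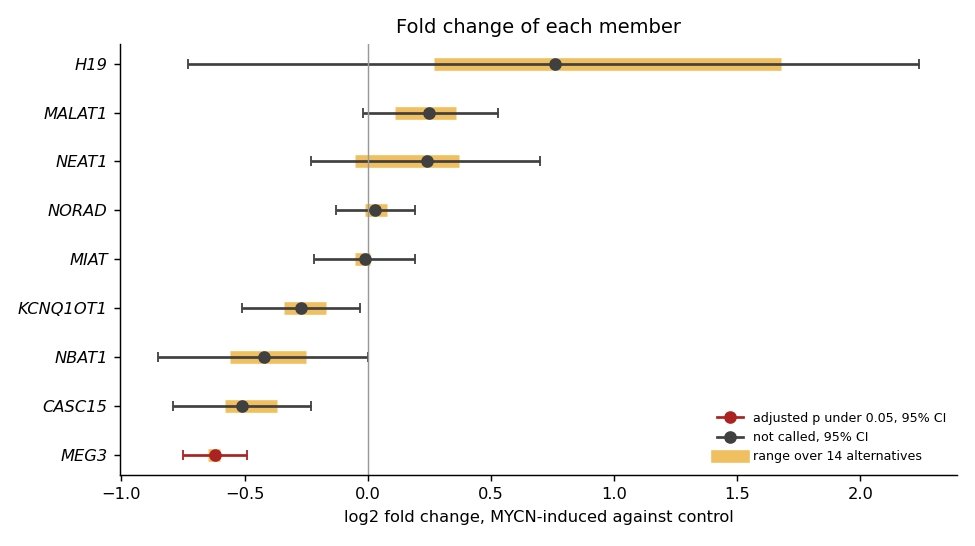
Log2 fold change of each member, MYCN-induced against control, with the 95% confidence interval of the edgeR fit (n = 3 per group) and, as an orange bar, the range over 14 alternative settings. MEG3, at -0.62, is the only member past the threshold.

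Outside the members, 26 genes share exon bases with one of them, and of the 21 tested, 2 were called lower and 0 higher by edgeR, both of the calls inside MEG3. Among 31 tested genes of 42 other known lncRNAs, only FENDRR, a lncRNA beside FOXF1, was called by edgeR: it rose from 0.659, 0.823 and 0.503 CPM to 1.57, 1.73 and 1.55 CPM (log2 fold change 1.29, adjusted p = 0.0173). Of the neuroblastoma markers, CHGA (-1.21, adjusted p = 0.0492) was called lower, and of the 11 mesenchymal markers tested FN1 (-0.71, adjusted p = 0.033) and COL3A1 (-0.51, adjusted p = 0.0396). Their part in the change of MEG3 was not tested. By pattern over the 6 libraries, which fall into 2 groups, the genes most like MEG3 were USP27X (Pearson r = 0.999), N6AMT1 (0.998) and ALDH1A3 (0.997) among 12483 genes, as a description. The genes most like H19 were CGRRF1 (0.990), TUBB (0.956) and CLIC1 (0.948). The most like CASC15 were ENSG00000269737 (0.998), EMP2 (0.996) and ITGA1 (0.996), and the most like KCNQ1OT1 were RMDN2 (0.998), KPNB1-DT (0.997) and EPHA3 (0.996).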

How the data were processed

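RNA of 3 control and 3 MYCN-induced SK-N-AS libraries was compared. The authors deposited estimated counts per gene: read pairs aligned with STAR 2.7.1a to GRCh38 and, per the file headers, counted over exons with featureCounts 1.6.4 from unique alignments, without a strand option, a pair over several genes being divided among them. The processing notes name featureCounts 1.5.1 and the methods give a strand option and the counting of multi-mapping pairs, neither of which is in the header, so antisense partners may not be separated and how pairs with several alignments were treated rests on the header. Of the values above 0, 31.9 to 33.4% were not whole.

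Gene names came from GENCODE release 44 (99.72% of identifiers matched). Counts were rounded, genes with 10 or more counts in 3 or more libraries were kept, and edgeR 4.0.16 (R 4.3.3; TMM, quasi-likelihood, no block, Benjamini-Hochberg, threshold 0.05) gave the tests. Shares and ratios had exact permutation tests (scipy 1.17.1). Alternatives were DESeq2 1.42.0, other scaling, count filters and library totals, a replicate block, leaving out each library and, chosen after seeing the data, scaling by protein-coding genes and the counts for the DLK1-DIO3 region. The fit was tested on simulated data. The 92 spike-ins were at 0. Named are all members, called genes of the lists (at most 6 each), 10 set genes, overlapping genes and the 3 genes most like a member; others, such as the DLK1-DIO3 genes, were named after their values were seen. Some genes that this rule names are not reported here. Members and lists were chosen with earlier results of these data known. Replicates of a group differed beyond counting error (chi-square per gene 12.1 to 145.6). Same-numbered libraries deviated together with correlations of 0.216, -0.019 and 0.074, so they were not treated as pairs.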

Additional observations from a re-analysis of the deposited data

How the results depend on the processing

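MEG3 was called lower under all 14 alternatives run. CASC15 was the only other member called under any: members called lower were 2 with DESeq2 and with no count filter, and 1 to 2 when a library was left out (2 without MYCN-induced replicate 3). No member was called higher under any setting. Over all genes, higher calls numbered 904 with DESeq2 and 470 with no filter, and lower calls 1199 with DESeq2 and 404 with at least 100 counts in every library. Leaving out single libraries gave 21 to 1058 higher and 92 to 1271 lower, the fewest without control replicate 2 and the most without MYCN-induced replicate 3. A fit with replicate block called 265 higher and 575 lower and changed no member's call, although H19 moved from 0.76 to 1.25 (adjusted p = 0.266). Scaling by library size or upper quartile shifted the median of all genes to -0.034 and -0.031. Signs turned for 3 members that were not called: NEAT1 ran from -0.05 (without MYCN-induced replicate 3) to 0.37 when a library was left out. MIAT was 0.00 with DESeq2 and with no filter and 0.01 without MYCN-induced replicate 1 or 2, within -0.05 to 0.01 over left-out libraries. NORAD was -0.01 by library size and -0.00 by upper quartile or without MYCN-induced replicate 3, and ran to 0.08 over left-out libraries. In the DLK1-DIO3 region, calls were 20 with DESeq2, and only 14 genes were tested with at least 100 counts, 13 below 0 and 4 called. The cause of these changes was not tested. In shares and ratios, the smallest p that 3 against 3 allows is 0.1, and 0.25 when paired. Intervals and counts cover the spread of these 6 libraries from 1 cell line.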
